A study of Mus musculus with 18 samples.

Results

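Vegfa and 9 genes that are read mainly in the endothelium (Kdr, Flt1, Pecam1, Cdh5, Tek, Tie1, Emcn, Sox17 and Sox18) were followed through 3 bulk RNA-Seq experiments on lungs of mouse embryos. The genes were chosen by symbol, and all 10 were found among the 23418 distinct names of each deposited table. Each experiment set 3 mutant libraries against 3 control libraries. In the Vangl1/2 experiment (stage E12.5, in days post coitum), the controls were Vangl1-/- and the mutants Vangl1-/-; Vangl2-/-, so that both groups are labelled as Vangl1 mutants and differ in Vangl2, a membrane protein of planar cell polarity. The allele of Vangl1 was a gene trap, and a floxed Vangl2 was deleted in all tissues of the embryo by Sox2-Cre. In the Dermo1Cre experiment (E12.5), Wnt5a f/+; Dermo1Cre controls were compared with Wnt5a f/f; Dermo1Cre mutants, in which deletion of this secreted Wnt ligand is directed to the mesenchyme. In the Sox9Cre experiment (E13.5), Wnt5a f/+; Sox9Cre controls were compared with Wnt5a f/f; Sox9Cre mutants, in which it is directed to the epithelium. Controls and mutants of both Wnt5a experiments carried the Cre, and the controls kept a working copy of Wnt5a. The number of embryos behind a library is not given in the sources used here, so p-values measure the spread between libraries, which may be technical in part.

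The lung's blood vessels form within the mesenchyme, close to the branching epithelium. Vegfa is the main secreted growth factor that draws endothelial cells into this plexus and keeps them alive, and it is made mostly by cells that are not endothelial. Kdr (VEGF receptor 2) carries most of its signal, whereas Flt1 (VEGF receptor 1) binds it tightly and signals weakly, and so acts largely as a trap. Tek (Tie2) is the receptor for the angiopoietins, and Tie1 is its partner. Pecam1 (CD31) and Cdh5 (VE-cadherin) join endothelial cells to each other, Emcn (endomucin) is a sialomucin of venous and capillary surfaces, and Sox17 and Sox18 are transcription factors of endothelial identity. In RNA from whole lungs, fewer endothelial cells and less RNA per cell cannot be told apart.

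The libraries held between 15945393 and 19814346 reads on genes, and the values are counts divided by a size factor per library (normalized counts). Each table was normalized separately, so differences were tested only within an experiment. The lowest value of any of the 10 genes in any library was 256 normalized counts (Sox17), and all 10 passed the filter on low values in all 3 experiments (10 normalized counts or more in 3 or more libraries of an experiment). Markers of the lung were present in every library, with sums of 24475 to 30197 normalized counts over 14 epithelial and of 56415 to 130615 over 11 mesenchymal genes. The targeted genes were read first. Vangl1 was still read in the Vangl1/2 experiment, at 162, 219 and 113 normalized counts in the controls and 239, 274 and 242 in the mutants, higher without overlap (log2 difference 0.65, unadjusted p = 0.0201; limma, adjusted p = 0.233) and at 0.36 with a trend on exon length removed. Vangl2 fell from 339 ± 64.9 to 85.3 ± 5.01 normalized counts (SD, n = 3 and 3; limma, adjusted p = 0.0318). Wnt5a was at 464 ± 30.8 in Dermo1Cre controls and 327 ± 103 in mutants (adjusted p = 0.406), with mutant replicate 2 at 436, inside the control range. In the Sox9Cre experiment it was at 451 ± 23.5 and 417 ± 48.0 (adjusted p = 0.9999), so these whole-lung values did not separate the mutants from the controls. Sequences upstream of the genes were read from RefSeq for 6 of the 10 genes. The 250 bases before the transcript starts of Kdr, Flt1 and Vegfa are shown because these were the 3 members with the highest log2 differences in the Vangl1/2 experiment (build GRCm38.p6, all on the minus strand). The capitals mark GGAAGT or its reverse complement ACTTCC, a core of sites for ETS factors.
Kdr, chr5:75978456-75978705: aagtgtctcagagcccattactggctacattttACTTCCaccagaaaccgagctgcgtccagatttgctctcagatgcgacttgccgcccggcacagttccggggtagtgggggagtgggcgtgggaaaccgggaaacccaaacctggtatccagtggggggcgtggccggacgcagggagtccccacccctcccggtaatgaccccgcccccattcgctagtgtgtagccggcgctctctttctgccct
Flt1, chr5:147726012-147726261: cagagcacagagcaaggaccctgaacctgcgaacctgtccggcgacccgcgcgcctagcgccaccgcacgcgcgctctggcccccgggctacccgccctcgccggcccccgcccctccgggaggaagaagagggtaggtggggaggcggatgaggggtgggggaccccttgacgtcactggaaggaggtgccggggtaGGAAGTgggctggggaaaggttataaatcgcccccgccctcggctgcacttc
Vegfa, chr17:46032378-46032627: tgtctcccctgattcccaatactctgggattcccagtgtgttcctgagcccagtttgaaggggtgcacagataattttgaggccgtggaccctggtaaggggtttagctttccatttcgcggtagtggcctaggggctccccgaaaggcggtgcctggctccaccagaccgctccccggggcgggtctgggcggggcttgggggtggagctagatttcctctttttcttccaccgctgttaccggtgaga
The match lies 217 bases before the start in Kdr, on the opposite strand, and 52 bases before it in Flt1, on the gene's strand. Tie1 also held it, 82 bases before its start, and Tek, Emcn and both Vegfa windows did not. These letters occur on either strand in 19.7% of the 32851 promoter windows of this length. The letters ACGTG, a core of the hypoxia response element, stood in the second Vegfa window only and occur in 16.6% of all windows. That window, chr17:46025164-46025413, is not shown and lies inside the annotated gene (chr17:46016993-46032369), downstream of the first window. Whether these letters act as such an element was not tested.

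Levels were compared between genes as RPKM, the reads on a gene scaled to the length of its annotated exons and to the depth of the library. In the controls of the Dermo1Cre experiment, Cdh5 stood highest, at 60.2 ± 1.80 RPKM (SD, n = 3). Pecam1 followed at 41.4 ± 1.54, Vegfa at 34.1 ± 0.531, Kdr at 25.1 ± 0.617 and Tie1 at 23.6 ± 0.957. Emcn, Sox18 and Tek lay between 17.4 and 19.7 RPKM, and Sox17 and Flt1 were lowest, at 4.25 ± 0.316 and 3.02 ± 0.155. The 10 genes stood in the same order in the Sox9Cre controls. In the Dermo1Cre controls of the neighbours only Sox18 and Tek overlapped in their 3 libraries, and in the Sox9Cre controls Emcn, Sox18 and Tek overlapped with their neighbours. In the Vangl1/2 controls the range of Vegfa (21.3 to 39.7 RPKM) ran into that of Pecam1 above it and of Sox18 below it, and Tie1, Emcn and Kdr each overlapped with the next gene, down to Tek. Flt1 has the longest annotated exons of the 10 genes, at 10961 bases, and its truncated, soluble form is not counted apart from the full receptor in a table by gene.

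**Figure D1:**
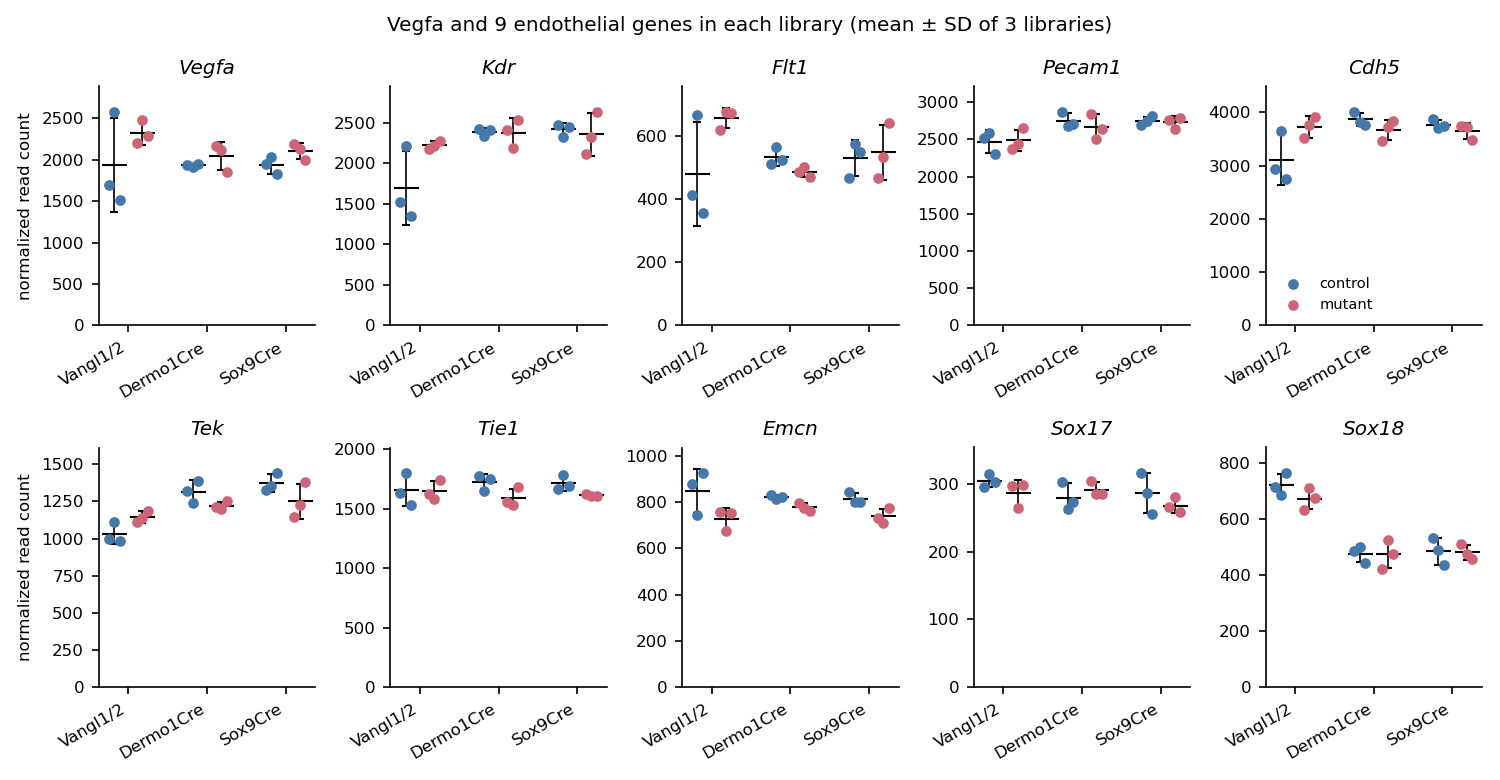
Normalized read counts (y axis) of Vegfa and the 9 endothelial genes in each of the 18 libraries, with controls in blue, mutants in red and the mean ± SD of 3 libraries in black; the experiments are on the x axis. Vangl1/2 control replicate 2 stands with the mutants for Vegfa, Kdr and Flt1 (2580, 2213 and 664 normalized counts), and the groups of the Wnt5a experiments lie close together.

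None of the 10 genes passed the test in Vangl1/2 mutant lungs (limma, smallest adjusted p = 0.235; edgeR 0.255; DESeq2 0.216), where 0.00699% of the 14303 genes tested did. In the fit of all 6 libraries, Flt1, Kdr and Vegfa had the highest log2 differences of the members, and Pecam1 and Tie1 lay close to 0 difference. Kdr and Flt1 were the 2 members with an unadjusted p under 0.05 and a higher value, against 12% of all genes; none was lower at that level, against 8.56% of all genes. No member had groups that were free of overlap, against 13.6% of all genes higher and 8.68% lower.

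Vegfa was at 1700, 2580 and 1520 normalized counts in the controls and at 2206, 2477 and 2285 in the mutants. Control replicate 2 was the highest of the 6 libraries and the other controls were the lowest. The log2 difference, mutant minus control, was 0.30 ± 0.18 (SE, n = 3 and 3), with a 95% interval of -0.12 to 0.73 (limma, adjusted p = 0.343).

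The receptors of Vegfa had a similar order of libraries. Kdr was at 1526, 2213 and 1354 in the controls and 2181, 2216 and 2276 in the mutants, a log2 difference of 0.42 ± 0.17 (SE; limma, adjusted p = 0.235). Flt1 was at 411, 664 and 356 and then 618, 676 and 671, a log2 difference of 0.51 ± 0.21 (SE; limma, adjusted p = 0.240). In both genes control replicates 1 and 3 lay below all mutants, and control replicate 2 lay among them.

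Of the angiopoietin receptors, Tek was at 1000, 1111 and 982 in the controls and at 1109, 1135 and 1188 in the mutants (log2 difference 0.15 ± 0.09, SE). Tie1, its partner, was at 1631, 1800 and 1533 and then 1626, 1584 and 1744 (log2 difference 0.00, 95% interval -0.22 to 0.22). Its mutant values lay inside the control range in all 3 libraries.

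Pecam1, the usual stain for vessels, was at 2514, 2593 and 2300 in the controls and 2367, 2445 and 2648 in the mutants, and its log2 difference of 0.01 had an interval of -0.20 to 0.22. Cdh5, the junction cadherin, was at 2936, 3648 and 2753 and then 3512, 3763 and 3921 (log2 difference 0.27 ± 0.12, SE; limma, adjusted p = 0.249). Emcn ran the other way, at 880, 744 and 926 in the controls and 757, 674 and 755 in the mutants (log2 difference -0.22 ± 0.12, SE). The transcription factors lay close to their controls. Sox17 was between 296 and 315 in the controls and between 264 and 298 in the mutants, and Sox18 between 686 and 765 and between 634 and 710.

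The 3 Vangl1/2 controls were spread more widely for Vegfa and its receptors than the controls of the other experiments. The coefficient of variation over 3 controls was 29.4% for Vegfa, 26.8% for Kdr and 34.5% for Flt1, and 3.07% for Sox17, the steadiest member. In the Dermo1Cre controls the 10 genes lay between 0.978% (Vegfa) and 7.54% (Sox17). The order of the Vangl1/2 libraries was not particular to these genes. Control replicates 1 and 3 read long genes less than the other libraries, with slopes of -0.18 and -0.22 on the log2 scale per doubling of exon length, whereas control replicate 2 (0.07) and the mutants (0.09 to 0.14) had slopes above 0. The first principal component, with 51.7% of the variance, placed control replicate 2 with the mutants.

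Over all genes the median log2 difference rose with exon length, from -0.42 for genes of 500 to 1000 bases to 0.49 for those of 8000 bases or more. Among the 10 members, Emcn and Sox18 have the shortest exons (2588 and 1620 bases) and were lower, and Kdr and Flt1 have the longest (5924 and 10961 bases) and the highest differences. Removing the trend on exon length took the difference of Flt1 to -0.01 and that of Kdr to 0.18. The difference of Vegfa (exons of 3523 bases) stayed at 0.30 and that of Cdh5 was 0.22. Emcn was then at -0.12, while Sox18 turned to 0.15. No member passed the test in that fit. The source of the length trend was not tested.

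**Figure D2:**
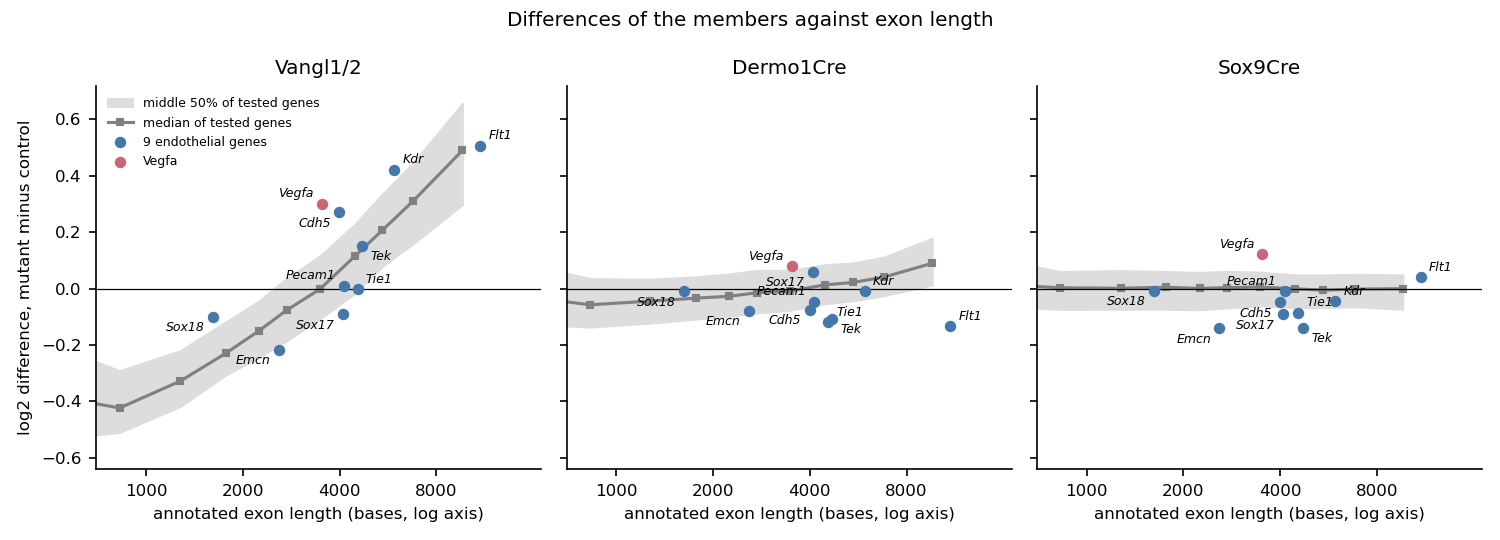
Log2 difference, mutant minus control (y axis), of the 10 genes against annotated exon length (x axis, log scale), with the median (line) and middle 50% (band) of all tested genes by length; Vegfa is red. In the Vangl1/2 experiment the median of all genes runs from -0.42 to 0.49 between the bins shown, Flt1 lies near it and Vegfa lies above it, and in the Sox9Cre experiment the line is flat.

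Which libraries were in the fit decided the calls. Without control replicate 2, 6 of the 10 genes passed the threshold, among 6180 of all genes, where 14303 were tested with all 6 libraries. Kdr (log2 difference 0.63, limma, adjusted p = 0.000176), Flt1 (0.77), Vegfa (0.53), Cdh5 (0.39) and Tek (0.21) were then higher in the mutants, and Emcn (-0.31) lower. Without control replicate 1 or 3 no member passed, and Vegfa was at 0.23 and 0.15. When control replicate 2 was left out and the length trend was also removed, a fit chosen after seeing the data, 1865 genes passed. With all 6 libraries, 13437 tested genes had an exon length. Among the genes that passed were Vegfa (0.53, limma, adjusted p = 0.00337), Kdr (0.30, 0.0174) and Cdh5 (0.32, 0.0148). Flt1 (0.04) and Tek (0.03) lay close to 0 in that fit, and Emcn (-0.16, limma, adjusted p = 0.242) did not pass. Pecam1 lay between -0.06 and 0.05 in all of these fits.

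**Figure D3:**
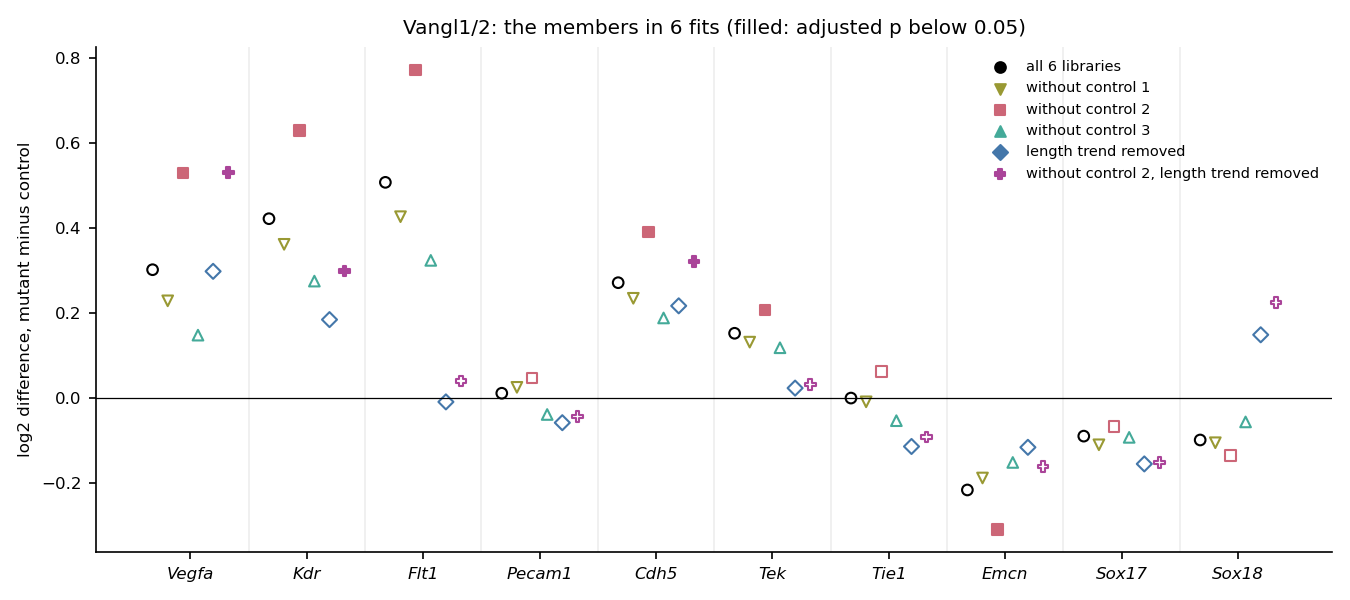
Log2 difference, mutant minus control (y axis), of each member (x axis) in the Vangl1/2 experiment under 6 fits, each with its own symbol, filled where the adjusted p was below 0.05. Without control replicate 2, 6 members are filled (6180 of all genes passed). When the length trend is also removed, 3 of them stay filled (1865 genes passed). Pecam1 lies between -0.06 and 0.05 throughout.

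Other genes of the vascular lists stood above 0 about as often as below it in Vangl1/2 lungs, as did all genes (6981 above and 7322 below). The list of VEGF and angiopoietin ligands and receptors also holds other genes, such as the adaptor protein Shc2. Of its 15 tested genes 7 were above 0 and 8 below, of 18 endothelial transcription factors 9 and 9, and of 29 other endothelial surface and junction genes 15 and 14. The medians were -0.01, 0.00 and 0.00, and that of all genes was -0.01. Without control replicate 2 the 3 list medians were 0.15, 0.02 and 0.03. In the fit of all 6 libraries, none of these genes passed the adjusted threshold. Cd93, a lectin-like receptor of endothelial cells, was at 2327, 2940 and 2249 in the controls and 3152, 3251 and 3611 in the mutants (log2 difference 0.42, unadjusted p = 0.00899), with no overlap between the groups. Klf2, a transcription factor induced by blood flow, was at 373, 305 and 384 and then 259, 261 and 221 (-0.51, unadjusted p = 0.00562), also without overlap. With the length trend removed, Cd93 was at 0.13 and Klf2 at -0.31. Mef2c (0.38) and Angpt1 (0.20), the ligand that activates Tek, were higher without overlap, and Pgf (-0.32), a VEGF family ligand that binds Flt1, and Ecscr (-0.43) were lower without overlap. With the trend removed, these 4 genes were at 0.04, 0.12, -0.15 and -0.10.

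The lymphatic list had a median of 0.41 over its 5 tested genes, which was 0.05 with the length trend removed and 0.64 without control replicate 2. Flt4, the receptor of lymphatic endothelium, was at 732, 1043 and 572 in the controls and 972, 1007 and 1054 in the mutants. Lyve1 (-0.24), a hyaluronan receptor of lymphatic endothelium and macrophages, was lower without overlap, and 8 of 11 macrophage markers were below 0 (median -0.31, and -0.11 with the trend removed). Mmrn1 was at 0.16. Among the 8 pericyte markers (7 tested), the cells that wrap the vessels, the median was 0.20, which was 0.82 without control replicate 2 and close to 0 with the trend removed. Their summed values were 4383 to 7619 in the controls and 7302 to 7448 in the mutants. Of 14 epithelial markers 8 were below 0 (median -0.18), and 0.04 was their median with the trend removed. Of 11 mesenchymal markers 7 were above 0 (median 0.29, and 0.14 with the trend removed). Of 8 neuron and crest markers 7 were above 0 (median 0.34, and 0.43 with the trend removed). The sums of the neuron and crest markers overlapped, at 572 to 1017 in the controls and 732 to 1291 in the mutants. Of 12 tested cardiomyocyte markers 8 were below 0 (median -0.42), with sums that overlapped, from 1902 to 5757 in the controls and from 656 to 8474 in the mutants. Their median was -0.23 with the trend removed and -0.81 without control replicate 2.

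Genes that respond to low oxygen, which also induces Vegfa, were 9 above and 9 below 0 among 18 (median 0.02, and 0.14 without control replicate 2). Hk2, a hexokinase, was at 0.40 and Higd1a, a mitochondrial protein, at -0.34, both in the fit that kept the length trend. Of the 5 hypoxia-inducible factors and Vhl, 4 were above 0 with a median of 0.21, which was 0.06 with the length trend removed. Hif3a was at 1390, 2312 and 1067 in the controls and 2357, 2360 and 2342 in the mutants, and Epas1 was at 452, 636 and 436 and then 619, 655 and 714. In both genes control replicate 2 stood nearer to the mutants than the other controls did; it lay below all mutants for Hif3a and among them for Epas1. Hif3a (0.64) and the 2 most abundant genes of this list, Hif1a (0.14) and Arnt (0.21), were higher without overlap. With the trend removed, they were at 0.36, -0.05 and 0.06.

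None of the 10 genes passed the test when Wnt5a was deleted in the mesenchyme either (limma, smallest adjusted p = 0.481; edgeR 0.488; DESeq2 0.792), and 0.014% of the 14277 genes tested did. Of the 9 endothelial genes 8 were below 0, by small amounts, with a median of -0.07 against 0.00 for all genes tested. Vegfa was above 0. All intervals of the 10 genes lay between -0.28 and 0.25, which is a ratio of 0.824 to 1.19.

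Vegfa was at 1940, 1909 and 1943 normalized counts in the Dermo1Cre controls and at 2160, 2121 and 1853 in the mutants. The controls lay close together, and mutant replicate 3 was below all of them (log2 difference 0.08 ± 0.06, SE; limma, adjusted p = 0.671). Kdr, at 2420, 2334 and 2414 and then 2409, 2182 and 2538, differed by -0.01. Its interval was -0.14 to 0.12.

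Flt1 was at 510, 565 and 523 in the controls and 486, 502 and 468 in the mutants, a log2 difference of -0.13 ± 0.07 (SE; limma, adjusted p = 0.520). In this experiment the median of all genes rose with exon length from -0.06 (500 to 1000 bases) to 0.09 (8000 bases or more), and with that trend removed Flt1 was at -0.22 (adjusted p = 0.426). Emcn was at 832, 813 and 820 and then 798, 773 and 763 (-0.08 ± 0.05, SE). These were the 2 members whose mutants all lay below all controls, against 7.92% of all genes in that direction. None was higher without overlap, against 7.65% of all genes.

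Tie1 was at 1772, 1653 and 1752 in the controls and 1553, 1533 and 1681 in the mutants (log2 difference -0.12 ± 0.05, SE; limma, adjusted p = 0.481). It was the only member with an unadjusted p under 0.05, on the lower side, where 4.76% of all genes stood, and 5.42% of genes were higher at that level. Tek was at 1321, 1238 and 1389 and then 1213, 1199 and 1250 (-0.11 ± 0.05, SE). Both angiopoietin receptors thus had 2 mutants below all controls and 1 mutant that reached the control range.

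Pecam1 (-0.05), Cdh5 (-0.07), Sox17 (0.06) and Sox18 (-0.01) all had overlapping groups. Cdh5 was between 3767 and 4013 in the controls and between 3465 and 3838 in the mutants. The sum of the 9 endothelial genes ran from 13861 to 14530 in the controls and from 13231 to 13943 in the mutants, which overlapped.

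**Figure D4:**
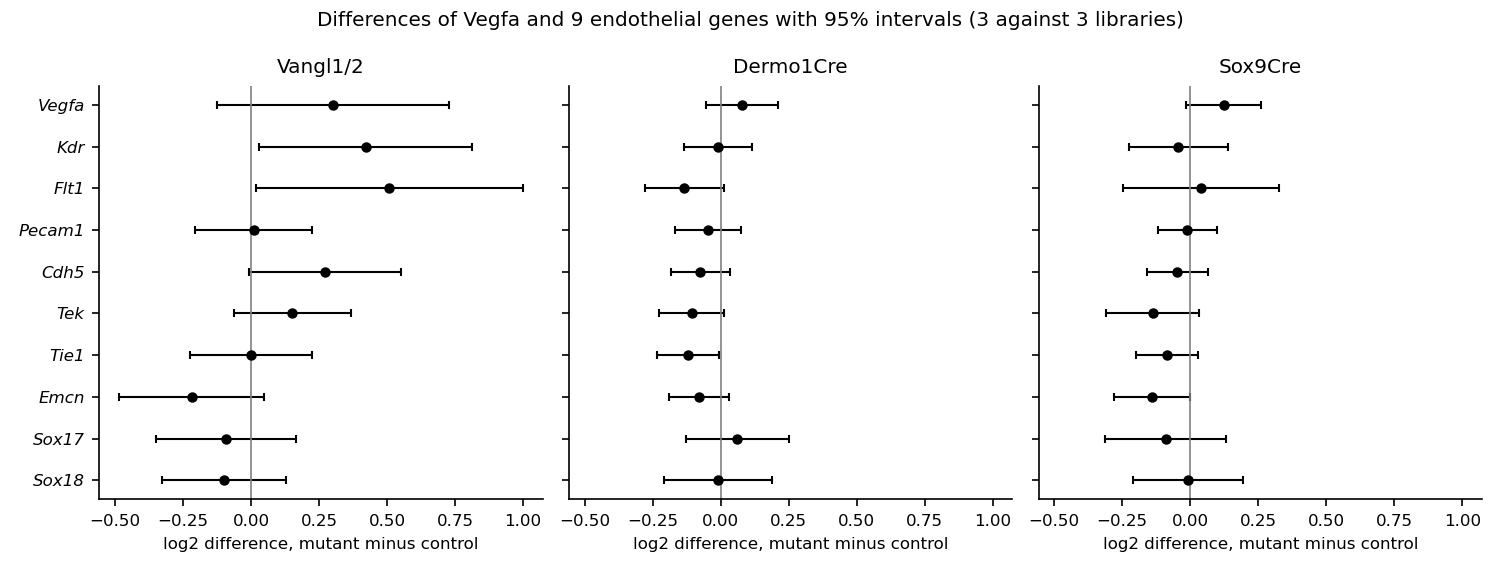
Log2 difference, mutant minus control (x axis), of the 10 genes (y axis) with 95% intervals from limma, for 3 against 3 libraries in each experiment; the vertical line marks no difference. The intervals of the Wnt5a experiments lie between -0.31 and 0.33, and those of the Vangl1/2 experiment reach 0.998 for Flt1.

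The other vascular genes leaned the same way in the Dermo1Cre experiment, and none passed the adjusted threshold. Of 29 other endothelial surface and junction genes 26 were below 0 (median -0.09), of 18 endothelial transcription factors 15 (median -0.08), and of 15 VEGF and angiopoietin genes 12 (median -0.06). Over all genes, 7101 of 14277 were below 0. Markers of other lung cells also lay below 0. Of 14 epithelial markers 13 did so (median -0.11), of 11 tested mesenchymal markers 9 (median -0.11), and of 7 pericyte markers 5 (median -0.13). Of 8 neuron and crest markers 7 were above 0 (median 0.95), their summed values being 569 to 898 in the controls and 958 to 1864 in the mutants. Of 13 tested cardiomyocyte markers 13 were below 0 (median -1.26), with sums of 1465 to 22641 in the controls and 1022 to 5047 in the mutants. None of these marker genes stood at 0 in all 6 libraries, and their part in the vascular values was not tested.

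Plvap, the protein of capillary diaphragms, was at 1233, 1383 and 1274 in the Dermo1Cre controls and 1100, 1216 and 1122 in the mutants (-0.18, unadjusted p = 0.0143). Vwf, a clotting factor stored in endothelium, was at 287, 320 and 404 and then 280, 266 and 167 (-0.52, unadjusted p = 0.0234). Gata2, an endothelial and blood factor, was at 182, 165 and 177 and then 112, 144 and 140 (-0.41, unadjusted p = 0.00849). In these 3 genes every mutant lay below every control. Vegfb (-0.19), a ligand of Flt1, was also lower without overlap, while Nr2f2 (-0.12), a factor of venous identity, and Shc2 (0.22), an adaptor protein of receptor signaling, overlapped with their controls. Mmrn1 (0.17), an extracellular protein used here as a lymphatic gene, was higher at an unadjusted p of 0.0386 with overlapping groups. Aplnr, the apelin receptor and the most abundant of the receptor list, differed by -0.04, and Nrp1, a coreceptor of Vegfa, by -0.03.

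Of 18 hypoxia-responsive genes 16 were below 0 (median -0.11), and none passed the adjusted threshold. Slc2a1, the main glucose transporter of embryonic tissues, was at 1240, 1314 and 1340 in the controls and 1116, 1125 and 1006 in the mutants (-0.26, unadjusted p = 0.00121; limma, adjusted p = 0.198). Ddit4, an inhibitor of mTOR signaling, was at 540, 554 and 563 and then 477, 504 and 432 (-0.23). Neither gene overlapped between the groups. Hif1a (0.02) and Arnt (-0.01) lay close to their controls, and Ldha (-0.19) and Pgk1 (-0.13) overlapped with theirs.

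**Figure D5:**
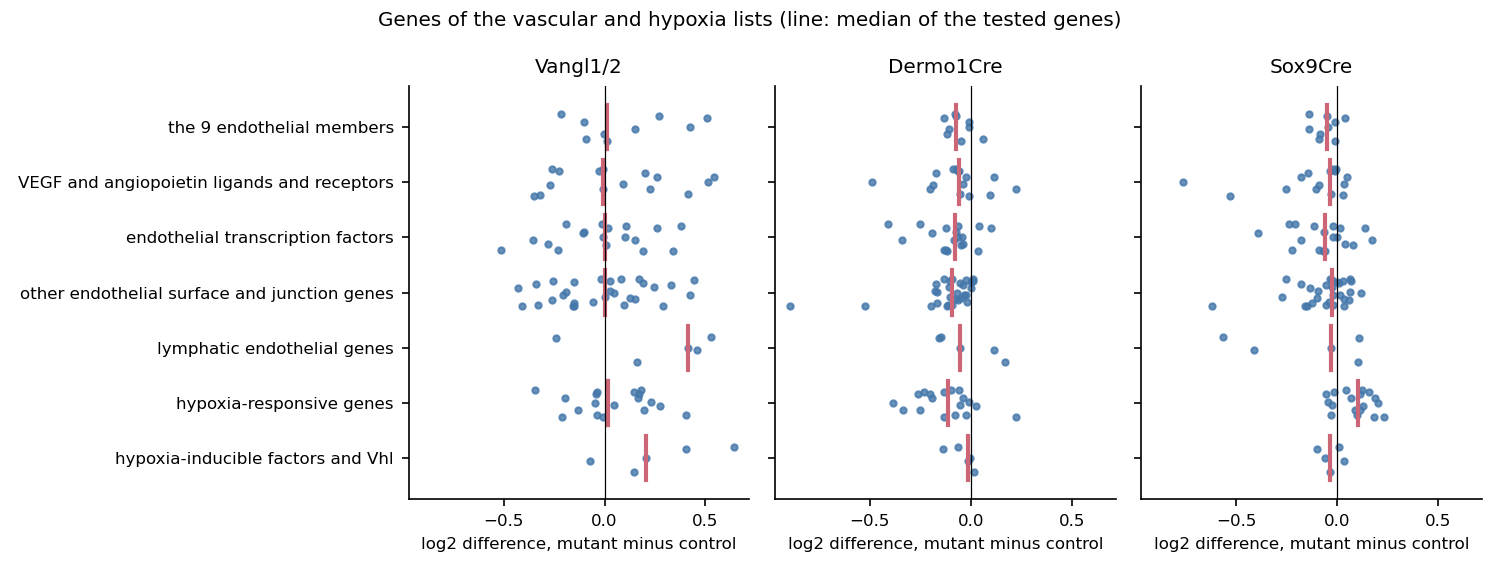
Log2 difference, mutant minus control (x axis), of each tested gene (points) in 7 gene lists (y axis), with the list median as a red line, in the 3 experiments. In the Dermo1Cre experiment 26 of 29 endothelial surface genes and 16 of 18 hypoxia-responsive genes lie below 0, and in the Sox9Cre experiment 13 of 18 hypoxia-responsive genes lie above 0.

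Deletion of Wnt5a in the epithelium left the 10 genes without a call as well (limma, smallest adjusted p = 0.9999; edgeR 0.9994; DESeq2 0.9999), and 0% of the 14293 genes tested passed. DESeq2 called 9 genes on the recovered reads and edgeR called none; at an unadjusted p under 0.05, limma found 1.08% of genes higher and 2.81% lower. Vegfa was again above 0 and 8 of the 9 endothelial genes were below it, with a median of -0.05 against 0.00 for all genes. The intervals of the 10 genes lay between -0.31 and 0.33, a ratio of 0.805 to 1.25.

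Vegfa was at 1945, 2027 and 1826 normalized counts in the Sox9Cre controls and 2190, 2124 and 1995 in the mutants. Mutant replicates 1 and 2 lay above all controls and replicate 3 within their range (log2 difference 0.12 ± 0.06, SE; limma, adjusted p = 0.9999). Emcn was at 843, 800 and 800 and then 731, 710 and 776 (-0.14 ± 0.06, SE), the only member with an unadjusted p under 0.05. Tie1 was at 1668, 1784 and 1691 and then 1627, 1609 and 1608 (-0.09 ± 0.05, SE). Emcn and Tie1 were the 2 members whose mutants all lay below all controls, against 4.36% of genes lower and 4.42% higher without overlap.

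Tek was at 1325, 1357 and 1440 in the Sox9Cre controls and 1147, 1226 and 1381 in the mutants, with replicate 3 inside the control range (-0.14 ± 0.08, SE). Kdr was at 2475, 2329 and 2453 and then 2109, 2319 and 2637, so that the mutants lay on both sides of the controls (-0.04, interval -0.23 to 0.14). Flt1, at 465, 574 and 550 and then 467, 533 and 641, had the widest spread of the 10 genes (coefficient of variation 16.0% in the mutants) and differed by 0.04. Pecam1 differed by -0.01 (interval -0.12 to 0.10), Cdh5 by -0.05, Sox17 by -0.09 and Sox18 by -0.01, all with overlapping groups.

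Of the other Sox9Cre vascular genes, 19 of 29 endothelial surface genes were below 0 (median -0.03), 13 of 18 transcription factors (median -0.06) and 12 of 15 VEGF and angiopoietin genes (median -0.03). Over all genes, 7045 of 14293 were below 0. None passed the adjusted threshold. Angpt2, the ligand that opposes Angpt1 at Tek, was at 196, 163 and 172 in the controls and 131, 108 and 129 in the mutants (-0.53, unadjusted p = 0.00256). S1pr1, the endothelial receptor for sphingosine 1-phosphate, was at 511, 487 and 527 and then 433, 412 and 415 (-0.27, unadjusted p = 0.00304). Adm, the peptide adrenomedullin, was at 38.6, 31.9 and 27.9 and then 22.4, 15.1 and 19.5 (-0.76, unadjusted p = 0.0162). In these 3 genes, and in Mmrn2 (-0.25), an extracellular partner of Cd93, every mutant lay below every control. Nrp1 (-0.18), Hey2 (-0.39), an arterial Notch target, and Reln (-0.41), a secreted protein of lymphatic endothelium, had unadjusted p-values under 0.05 and overlapping groups.

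All 15 cardiomyocyte markers were below 0 in the same comparison (median -1.97), with summed values of 5978 to 20565 in the controls and 1128 to 6699 in the mutants, and 5 of the 6 endocardium markers were below 0 (median -0.06). None of the 15 stood at 0 in all 6 libraries. Of 11 macrophage markers 11 were below 0 (median -0.15), of 8 neuron and crest markers 7 (median -0.53), of 6 tested red blood cell markers 6 (median -0.27), and of 14 epithelial markers 8 (median -0.02). The red cell genes Hba-a1 and Hba-a2 are listed at 0 in all libraries. The part of heart tissue in the Angpt2, Adm and Hey2 values was not tested. Of 18 hypoxia-responsive genes 13 were above 0 (median 0.10). Pgk1, a glycolytic enzyme, was at 4091, 4265 and 4006 in the controls and 5078, 4443 and 4556 in the mutants (0.19, unadjusted p = 0.0149), without overlap. Ldha, lactate dehydrogenase, was at 0.19 (unadjusted p = 0.0474), with overlapping groups.

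Across experiments that share no control library, the values of the members stood as follows. Vegfa was above 0 in all 3, at 0.30, 0.08 and 0.12 in the Vangl1/2, Dermo1Cre and Sox9Cre experiments. Emcn was below 0 in all 3, at -0.22, -0.08 and -0.14, and at -0.12, -0.06 and -0.14 with the length trend removed. Kdr was at 0.42, -0.01 and -0.04, and Flt1 at 0.51, -0.13 and 0.04. With the trend removed, Kdr was at 0.18, -0.04 and -0.04, and Flt1 at -0.01, -0.22 and 0.04. Pecam1 was at 0.01, -0.05 and -0.01. Of the most abundant genes of the lists, Aplnr was at 0.09, -0.04 and 0.03, Nrp1 at 0.26, -0.03 and -0.18, and Ephb4, a venous receptor of ephrin B2, at 0.15, -0.08 and 0.03. Nr2f2 was at 0.34, -0.12 and -0.07, Ets2 at 0.10, -0.06 and -0.02, and Foxf1, a factor of lung mesenchyme and endothelium, at 0.01, -0.05 and 0.08. The values of these list genes are from fits that kept the length trend. The differences between experiments were not tested, since the tables were normalized separately and the Sox9Cre lungs were at E13.5, the others at E12.5.

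The genes that followed Vegfa most closely from library to library were Cacna1g (a T-type calcium channel), Lmtk3, Prrt2, Abcc5 (a drug and nucleotide transporter) and Ltbp4 (an extracellular protein that binds latent TGF-beta). Their deviations from the group means had a Pearson r of 0.94 to 0.97 with those of Vegfa over 18 libraries, among 13968 genes tested in all 3 experiments. The mean of the 9 endothelial genes was followed most closely by Pkp4, Ino80d, Sipa1l3, Jarid2 and Adam19 (r of 0.95 to 0.97). These points share the spread of the Vangl1/2 controls. Over the 12 libraries of the Wnt5a experiments, the 5 genes closest to Vegfa and to the endothelial mean were others (highest r of 0.96 for each). Kdr had an r of 0.68 with Vegfa over the 18 libraries and of -0.69 over the 12 libraries of the Wnt5a experiments, and Flt1 one of 0.74 and -0.23.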

How the data were processed

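RNA of whole embryonic mouse lungs was sequenced on Illumina instruments. Per the labels, the authors used Trim Galore, HISAT2, featureCounts and DESeq2 with mm10 (versions not given in the sources used here). The deposited values are a signal: the authors counted reads per gene and scaled each library by its size factor. They came out as whole reads for 100% of values above 0 (tolerance 0.01 reads), with size factors of 0.952 to 1.07. The tables also hold the authors' own fold changes and p-values, which were not used. Groups came from the labels.

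Values were tested as log2(normalized count + 1) with limma (version 3.58.1, R 4.3.3, mean-variance trend, two-sided), so fold changes of low genes are understated. Genes were tested where 3 or more libraries held 10 normalized counts or more, and p-values were adjusted over all of them by the Benjamini-Hochberg method at 0.05. For a single gene, 3 libraries against 3 cannot give an exact permutation p below 0.1. edgeR (version 4.0.16) and DESeq2 (version 1.42.0) were run on the recovered reads as alternatives, beside TMM scaling, other pseudocounts, no filter, a replicate block, removal of a lowess trend on exon length (span 0.3) and leaving out each library. Exon lengths came from GENCODE (92.9% of rows had one) and promoter windows from RefSeq. The scripts were tested on simulated data. Figures were drawn with Python (version 3.11.15).

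The members and the gene lists were chosen with earlier results of these data known. Beside the members and the targeted genes, the rule names from each list every gene past the adjusted threshold, the 2 with the smallest unadjusted p under 0.05 per experiment and the 2 most abundant, and the 5 genes most like Vegfa and most like the endothelial mean.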

Additional observations from a re-analysis of the deposited data

Results flagged for a closer look

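For 2 genes of the lists every mutant lay on one side of the controls in one experiment and on the other side in another. Adm was higher in Vangl1/2 mutants (log2 difference 0.51) and lower in Sox9Cre mutants (-0.76). Higd1a was lower in Vangl1/2 mutants (-0.34) and higher in Sox9Cre mutants (0.13). These values are from fits that kept the length trend. In the Vangl1/2 experiment the median of all genes ran from -0.42 (500 to 1000 bases) to 0.49 (8000 bases or more). Over all genes, groups were free of overlap for 13.6% higher and 8.68% lower in the Vangl1/2 experiment. In the Sox9Cre experiment the shares were 4.42% higher and 4.36% lower. The difference between the experiments was not tested. None of the 10 members met this criterion, and groups of 3 libraries are too small for a test of single outlying libraries.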

How the results depend on the processing

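Of the members' log2 differences under the alternatives, 131 of 150 values in the Vangl1/2, 135 of 140 in the Dermo1Cre and 132 of 140 in the Sox9Cre experiment kept their direction and their side of the threshold. With the exon length trend removed, Flt1 (-0.0099), Pecam1 (-0.059) and Sox18 (0.15) changed sign in the Vangl1/2 experiment and Sox18 (0.030) in the Dermo1Cre experiment. Leaving out each library gave Tie1 -0.054 to 0.061 and Pecam1 -0.040 to 0.047 in the Vangl1/2 experiment. It gave Sox18 -0.084 to 0.072 and Kdr -0.059 to 0.050 in the Dermo1Cre experiment, and Flt1 -0.079 to 0.15, Sox18 -0.085 to 0.059, Kdr -0.13 to 0.032 and Pecam1 -0.027 to 0.015 in the Sox9Cre experiment. Vegfa ranged from 0.15 to 0.53, 0.04 to 0.15 and 0.08 to 0.16 in the 3 experiments.

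The number of all genes called depended on the tool and the libraries. It was 1, 2 and 0 by limma and 20, 100 and 9 by DESeq2. Leaving out each library gave 0 to 6180, 0 to 52 and 0 to 13, the largest without Vangl1/2 control replicate 2, Dermo1Cre mutant replicate 1 and Sox9Cre mutant replicate 1, and 0 to 6 of the members in the Vangl1/2 experiment. Without control replicate 2 and with the length trend removed, 1865 genes and 3 members were called, with Pecam1 at -0.044 and Sox18 at 0.22. The median of the 9 endothelial genes in the Sox9Cre experiment ranged from -0.085 to -0.029. With a replicate block, 0 genes were called in the Vangl1/2 and 16 in the Dermo1Cre experiment, and no member in any. Same-numbered libraries correlated between -0.22 and 0.30. Libraries with different numbers were not compared, so whether the numbers pair them was not tested. The cause of these shifts was not tested. Fits that leave out a library rest on 2 libraries in a group.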
